A study of Culex quinquefasciatus with 7 samples.

Results

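The 72 h library was set against the 60 h library, the last interval of a time course of whole adult females of the southern house mosquito, Culex quinquefasciatus. A gene entered the comparison when it had at least 5 FPKM (a measure of fragments per length of gene, scaled for library size) at 72 h or at 60 h. Of the 20305 genes in the table, 8404 met this rule: 7551 reached 5 FPKM in both libraries, 618 at 72 h only and 235 at 60 h only. Of the genes nearest to this limit, the one inside had 5.0001 FPKM and the one outside 4.9988 FPKM in its higher library. Each library held whole bodies of 200 pooled females at a known time after eclosion, when the adult leaves the pupal case. The mosquitoes were kept on a light-dark cycle with 12 h for each phase. The labels name no strain, diet, mating state or treatment. The other 5 libraries, at 2, 12, 24, 36 and 48 h, had no part in the 5 FPKM rule or in the change from 60 h. They enter the rescaling and, where stated, further choices of genes. Each time has 1 library, so no difference between 72 h and 60 h carries a replicate error or a test. Differences are given by size.

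A female mosquito is not ready to reproduce when she emerges. Over the following days, under juvenile hormone, her fat body and ovaries mature and she becomes able to take blood, and the ovary then rests until a blood meal starts yolk production. Whole-body RNA mixes all tissues, so a larger or smaller share of a tissue and a higher or lower RNA level in its cells cannot be told apart. The deposited table gives identifiers only, with no gene names, and none of its identifiers was found in the reference table. The genes are therefore described by their levels and time courses, and 4 are given by identifier. For the same reason markers of other material in the pools, such as male tissue, could not be examined.

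Most genes differed little between the 72 h and 60 h libraries. Changes are log2((72 h + 1)/(60 h + 1)), a scale that understates the change of low genes. The median over the 8404 genes was 0.21, with quartiles of -0.03 and 0.39, and 72.8% of the genes were higher at 72 h. This shift was shared by most genes, and dividing each library by its median ratio over 2761 genes, all of 10 FPKM or more in each of the 7 libraries, lowered the median to 0.05 (8078 genes then reached 5 FPKM). Of the genes compared, 98.8% lay within 2-fold and 89.4% within 1.5-fold. Across the 8404 genes, which share the same 2 libraries and are not independent, log2(FPKM + 1) correlated at r = 0.972.

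Among the differences of at least 2-fold, lower genes outnumbered higher ones. At 72 h 24 genes were at least 2-fold higher (0.286% of those compared) and 73 at least 2-fold lower (0.869%). After rescaling the counts were 7 higher (0.0867%) and 121 lower (1.5%), so the excess of lower genes was present under either scaling while its size depended on it. Rescaling on the 60 h and 72 h libraries alone gave 6 higher (0.0739%) and 146 lower genes (1.8%). At 1.5-fold the direction of the excess did turn with the scaling. The deposited values gave 555 higher (6.6%) and 340 lower genes (4.05%), and the rescaled values 156 higher (1.93%) and 550 lower (6.81%). At 3-fold there were 3 higher and 16 lower genes, and at 4-fold 1 and 6. The median change of the 73 lower genes was -1.20 (quartiles -1.48 and -1.09), and that of the 24 higher genes was 1.06 (quartiles 1.03 and 1.21). The lower quartile of level was 3.09 FPKM at 72 h in the 73 genes and 4.67 FPKM at 60 h in the 24. Part of each set thus passed 5 FPKM only through the library in which it was high. Next to the 2-fold limit, the nearest higher gene inside had a change of 1.001 and the nearest outside 0.997. On the lower side these were -1.002 and -0.991.

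**Figure D1:**
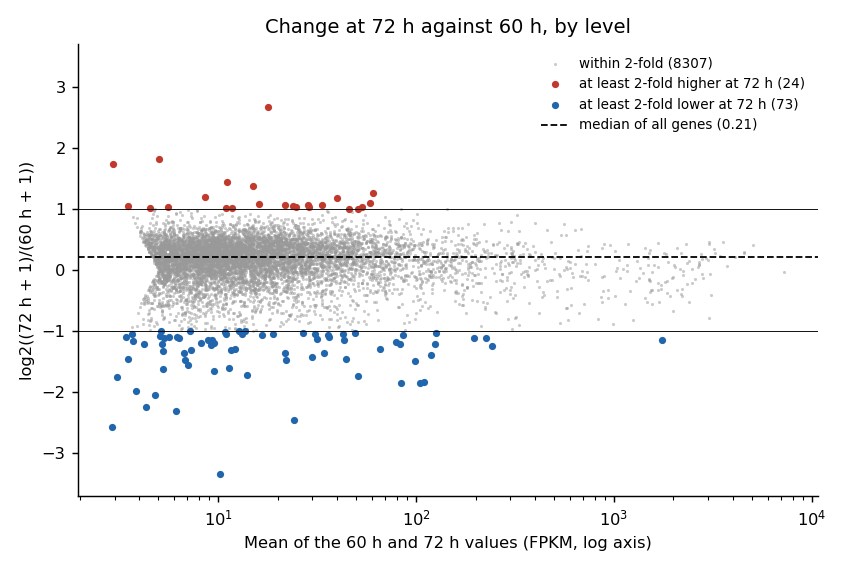
Each point is 1 of 8404 genes: the horizontal axis is the mean of its 60 h and 72 h values in FPKM (log axis), the vertical axis its log2 change at 72 h against 60 h, and the dashed line the median of all genes. The 73 lower genes reach a level of over 1000 FPKM and a change of -3.33, while the 24 higher genes stay under 100 FPKM and only 1 exceeds a change of 2.

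Of 641 genes of 100 FPKM or more in either library, 0 were counted as 2-fold higher at 72 h and 14 as 2-fold lower. Over all 8404 genes compared the shares were 0.286% higher and 0.869% lower. At that share few higher genes would fall among 641, so the 0 is near it. The 14 lie above their share, but all 14 reached 100 FPKM at 60 h and only 4 of them at 72 h. Most of them thus met the limit only through the library in which they are high, so their number is a description. By the mean of both libraries, 8 of 491 genes from 100 to 1000 FPKM were at least 2-fold lower (1.63%). By the ratio of the FPKM themselves, without the added 1, the counts among the 641 were 2 higher, with ratios of 2.00 and 2.01, and 15 lower. The most abundant of the 14 stood at 1087 FPKM at 72 h, against 2398 FPKM at 60 h (log2 change -1.14). In the 2, 12, 24, 36 and 48 h libraries it had 2.73, 52.0, 2104, 3726 and 2106 FPKM, so its 72 h value was the lowest since 12 h. Together the 73 lower genes held 0.516% of all FPKM at 72 h and 1.28% at 60 h. The 24 higher genes held 0.164% at 72 h and 0.0741% at 60 h.

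The spread of the changes was also examined by level, since with single libraries it is the nearest to an error and holds noise and true change together. With rescaled values, the interquartile range of the change was 0.69 among genes whose mean was under 5 FPKM, 0.40 from 5 to 10 FPKM, 0.39 from 10 to 20, 0.40 from 20 to 50, 0.47 from 50 to 100, 0.43 from 100 to 1000 and 0.48 at 1000 FPKM or more. For the 60 h library against 48 h, the ranges from 5 FPKM up were between 0.26 and 0.34. The spread at 72 h against 60 h thus did not narrow with level above 5 FPKM and was wider than in the preceding interval in each bin. By a rough estimate the 60 h library was the shallower of the pair. Steps of whole fragments among values under 0.3 FPKM gave an estimate of 1.60 for the depth of the 72 h library relative to the 60 h library. That ratio was the commonest but was held by only 137 of 1879 such genes, so the estimate is rough. Those genes had medians of 0.0543 FPKM in the 72 h library and 0.0869 FPKM in the 60 h library. If that is 1 fragment, a gene of the same length at 5 FPKM rests on 92.1 fragments at 72 h and 57.5 at 60 h, and on more if it is several. Counting error only is covered by such a figure. The part of depth in the single results was not tested.

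The most abundant genes were largely the same in both libraries. At a mean of 1000 FPKM or more, 1 of 96 genes was at least 2-fold lower at 72 h (1.04%) and 0 were higher. The lower share was near the 0.869% of all genes compared. Of the 100 with the highest FPKM at 72 h, 95 were also among the 100 highest at 60 h. Of 103 genes with at least 1000 FPKM in either library, 49 were higher and 54 lower at 72 h, with a median change of -0.02 and a range from -1.14 to 0.46. After rescaling their median was -0.18, against 0.05 for all genes.

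The 4 genes given by identifier were those with the largest change per direction above 10 FPKM and above 100 FPKM, after genes listed at 0 in any library were left out. That step removed the gene with the largest decrease, at 1.03 FPKM in the 72 h library and 19.5 FPKM in the 60 h library (log2 change -3.33), which is among the genes nearly absent at 48 h. CPIJ002127 led the increases above 10 FPKM. It had 31.8 FPKM in the 72 h library and 4.13 FPKM in the 60 h library, a ratio of 7.69 (log2 change 2.67, 2.51 after rescaling). Earlier it had 0.50, 2.50, 4.97, 4.79 and 4.19 FPKM in the libraries of 2, 12, 24, 36 and 48 h. The gene thus lay between 4.13 and 4.97 FPKM from 24 to 60 h, and the 72 h library stood apart from all others.

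CPIJ009026 led the increases above 100 FPKM. It had 113 FPKM in the 72 h library and 56.1 FPKM in the 60 h library (log2 change 0.99, 0.83 after rescaling). The FPKM ratio was 2.01, and the gene fell outside the 2-fold count through the added 1; with a pseudocount of 0.1 its change was 1.01. Its other values were 80.8, 150.0, 144, 114 and 171 FPKM in the libraries of 2, 12, 24, 36 and 48 h. Here the 60 h value was the lowest of the 7, and the 72 h value lay within the range of the earlier ones.

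CPIJ009658 led the remaining decreases above 10 FPKM. It had 6.73 FPKM in the 72 h library and 41.5 FPKM in the 60 h library (log2 change -2.46, -2.60 after rescaling). The earlier values were 3.00, 10.2, 13.1, 12.1 and 19.6 FPKM in the libraries of 2, 12, 24, 36 and 48 h. The 60 h value was the highest of the series, and the 72 h value was below every library from 12 h on.

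CPIJ005743 led the decreases above 100 FPKM. It had 45.1 FPKM in the 72 h library and 165 FPKM in the 60 h library (log2 change -1.85, -2.01 after rescaling). Before that it had 50.004, 93.9, 39.8, 149 and 105 FPKM in the libraries of 2, 12, 24, 36 and 48 h. Its values alternated: 12, 36 and 60 h were each above the library that followed.

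**Figure D2:**
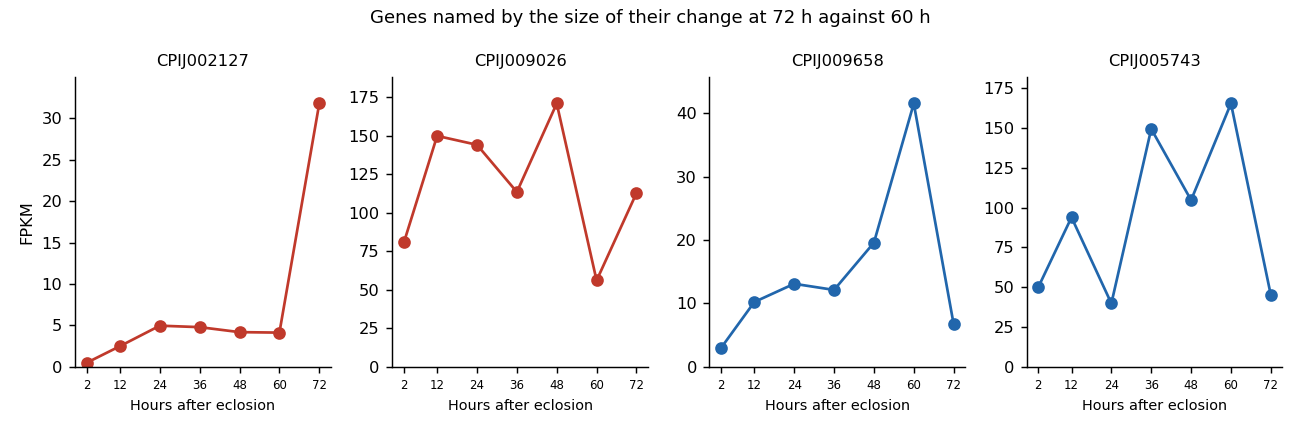
FPKM of the 4 genes given by identifier in each of the 7 libraries, 1 point per library (1 pool of 200 females each). CPIJ002127 is high at 72 h alone, CPIJ009026 is lowest at 60 h, CPIJ009658 is highest at 60 h, and CPIJ005743 goes up and down at every step.

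The alternation seen in CPIJ005743 was shared by many of the 73 lower genes. Their median levels were 6.63, 17.8, 10.6, 17.5, 13.9, 17.8 and 6.73 FPKM in the libraries of 2, 12, 24, 36, 48, 60 and 72 h. The medians at 12, 36 and 60 h were close to each other, and those at 24, 48 and 72 h lay below them. Over all 8404 genes the medians were instead 6.92, 9.06, 11.2, 11.8, 13.6, 12.5 and 14.2 FPKM at the same times. A 72 h value below all 5 earlier libraries was found in 20 of the 73 genes and in 490 of the 8404, and a 60 h value above all 5 in 36 of the 73 and in 1937 of the 8404. The rule used the 72 h and 60 h values, so these counts are a description.

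**Figure D3:**
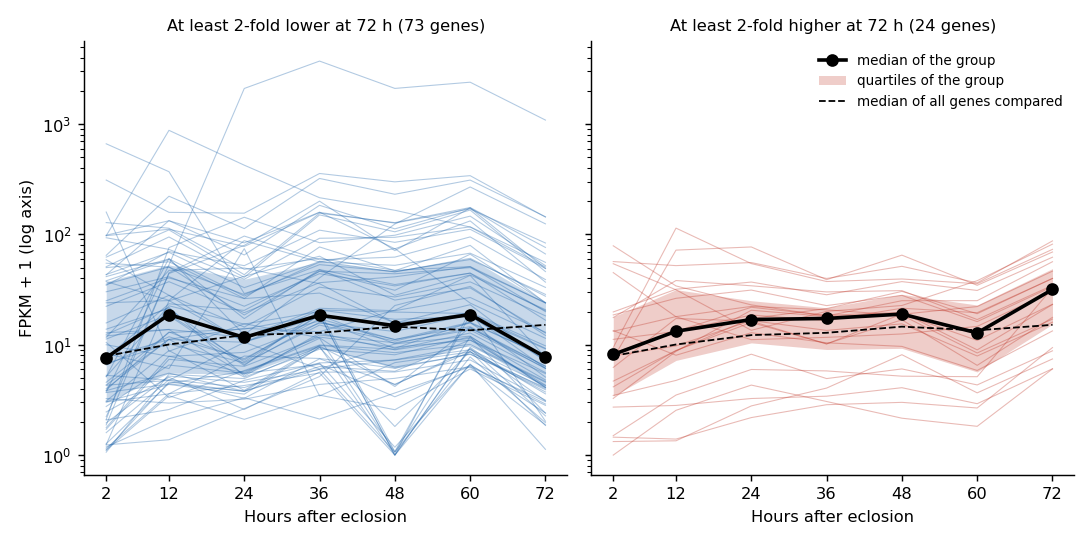
FPKM + 1 (log axis) of the genes at least 2-fold lower at 72 h than at 60 h (left, 73 genes) and at least 2-fold higher (right, 24 genes) over the 7 libraries: thin lines are genes, the thick line their median, the band their quartiles and the dashed line the median of all 8404 genes. The lower genes dip at 24 h and 48 h as well as at 72 h, and several of them come down to the axis at 48 h; the higher genes have their lowest median since 2 h at 60 h.

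The libraries from 12 to 48 h share no sample with the 60 to 72 h comparison, so the rule used none of these values. From 12 to 24 h the 73 genes had a median change of -0.55, against 0.33 for all genes compared. At 24 h 52 of them (71.2%) were lower than at 12 h, against 24.9% of all. From 36 to 48 h their median was -0.37, against 0.18, and 58 (79.5%) were lower at 48 h, against 25.3% of all. In 46 of the 73 (63.0%) both of these steps went down, against 11.4% of all genes compared. After rescaling this held for 51 of the same 73 genes (69.9%), against 22.5% of all. Of the 121 lower genes chosen on rescaled values it held for 82 (67.8%), against 22.8%. The step from 24 to 36 h, which shares a library with each of these, had a median of 0.90 in the 73 genes and 0.03 in all. In size, 21 of the 73 were at least 2-fold lower at 24 h than at 12 h, against 171 of the 8404. At 48 h 15 of the 73 were at least 2-fold lower than at 36 h, against 37 of the 8404, but 8 of the 15 are genes nearly absent at 48 h, described further on, and 7 of the other 65 were. For the 340 genes at least 1.5-fold lower at 72 h, 188 (55.3%) went down in both earlier steps. The genes share the same libraries, so these counts are not independent observations and no test was made of them. The later library of each step was also the deeper one by the same estimate: 1.096 at 24 h relative to 12 h, 1.04 at 48 h relative to 36 h and 1.60 at 72 h relative to 60 h. The part of depth in the alternation was not tested. A limit of 20 FPKM on the higher of the 2 last libraries kept 33 lower genes. Of these, 22 went down in both earlier steps (66.7%), against 13.0% of the 3197 genes of that level. For the lower genes the higher library is always the 60 h one. Some met the limit through it alone, such as CPIJ009658 with 41.5 FPKM at 60 h and 6.73 FPKM at 72 h. The share is thus a description and no test of depth.

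The earlier steps varied with the size of the last one, though for 36 to 48 h not throughout. With rescaled values, the 605 genes with a change between -1 and -0.5 had a median of -0.41 from 12 to 24 h and of -0.14 from 36 to 48 h. The 2739 genes with a change between 0 and 0.25 had medians of 0.20 and 0.13, and the 1501 genes between 0.25 and 0.5 had 0.31 and 0.14. In the 313 genes between 0.5 and 1 the medians were 0.32 and 0.07, and in the 7 genes above 1 they were 0.50 and -0.00, so the 36 to 48 h step was smaller again at the upper end. Across 8078 genes the last step correlated at r = 0.32 with the step from 12 to 24 h and at r = 0.33 with that from 36 to 48 h, and at r = -0.44 with that from 24 to 36 h. The first step, from 2 to 12 h, gave r = -0.08. None of these 4 steps contains the 60 h or the 72 h library. Among 2601 genes whose mean over 12 to 48 h was 20 FPKM or more, with deposited values, the first 3 of these correlations were 0.25, 0.28 and -0.42.

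**Figure D4:**
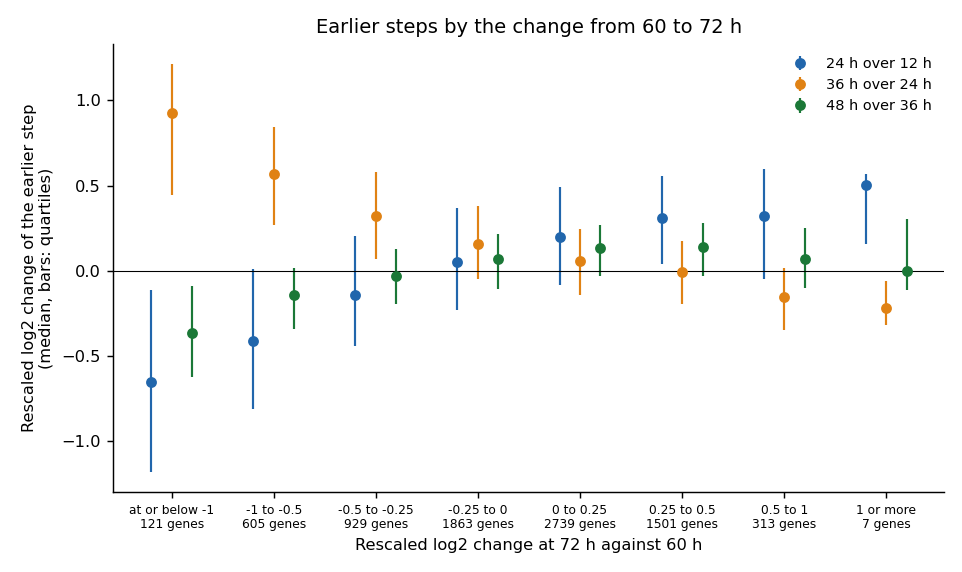
Median rescaled log2 change of 3 earlier steps (points; bars are quartiles over genes) for genes in 8 bins of their rescaled change at 72 h against 60 h, with the number of genes under each bin. From the 121 genes at or below -1 towards the genes around 0, the 24 h over 12 h and 48 h over 36 h steps move from -0.65 and -0.37 up to positive medians (48 h over 36 h returning to -0.00 in the 7 genes above 1), and the 36 h over 24 h step moves from 0.92 down.

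Libraries at 24, 48 and 72 h follow those at 12, 36 and 60 h by 12 h, and the females were kept in equal spans of light and dark. The labels do not say when the lights came on or at what hour each pool emerged, so the phase at sampling is unknown. Light phase and any other difference between these 2 sets of libraries cannot be told apart, since each time is 1 pool.

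The median level of the 24 higher genes was higher at each step up to 48 h, although most of these genes went down from 24 to 36 h. Their median levels were 7.16, 12.3, 15.9, 16.3, 18.0, 11.8 and 30.7 FPKM in the libraries of 2, 12, 24, 36, 48, 60 and 72 h. In 14 of the 24 (58.3%) the values went up both from 12 to 24 h and from 36 to 48 h, near the 61.1% of all genes compared. After rescaling this was so for 8 of the 24, against 44% of all, and for 1 of the 7 higher genes chosen on rescaled values, against 43.9%. Both steps went down in 0 of the 24, against 11.4% of all (2 of the 24 and 22.5% after rescaling). From 24 to 36 h the 24 genes had a median change of -0.27, against 0.03 for all genes compared. At 36 h 18 of the 24 were lower than at 24 h, against 46.7% of all. With rescaled values 17 were, against 36.7%. The 72 h value was above all 5 earlier libraries in 15 of the 24 and in 4065 of the 8404, and the 60 h value was below all 5 in 7 of the 24 and in 835 of the 8404, counts that again draw on the values behind the choice. At 1.5-fold, 381 of 555 higher genes (68.6%) went up in both earlier steps, but with rescaled values 61 of 156 did (39.1%), below the share of all genes.

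A small group of the lower genes was nearly absent from the 48 h library. Of the 8404 genes compared, 8 (0.0952%) had at most 0.2 FPKM at 48 h, 4 of them listed at 0, and all 8 were among the genes at least 2-fold lower at 72 h. This limit was set after the values were seen. The 60 h library alone brought 7 of the 8 past 5 FPKM, so their lower value at 72 h was largely set by the choice. Where a value is listed at 0, the estimate may have failed. The 8 genes ranged between 0.0628 and 4.14 FPKM at 2 h, then between 2.60 and 21.5 FPKM in the 12 h library, 3.09 and 14.4 FPKM in the 24 h library and 4.55 and 19.0 FPKM in the 36 h library. They had at most 0.178 FPKM at 48 h, between 5.62 and 19.5 FPKM in the 60 h library and between 0.127 and 5.13 FPKM in the 72 h library. Their ratio of 72 h to 60 h was between 0.0224 and 0.291, and that of 60 h to 36 h between 0.481 and 1.36. Each of the 8 genes was higher at 12, 24 and 36 h, which the choice did not use, than at 72 h. The next lowest gene at 48 h among those compared, at 0.530 FPKM, had 7.23 FPKM in the 72 h library and 7.91 FPKM in the 60 h library. The one after it, at 0.816 FPKM, had 0.857 FPKM in the 72 h library and 7.74 FPKM in the 60 h library. Without the 8 genes, 65 genes were at least 2-fold lower at 72 h, and 40 of these (61.5%) went down in both earlier steps.

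**Figure D5:**
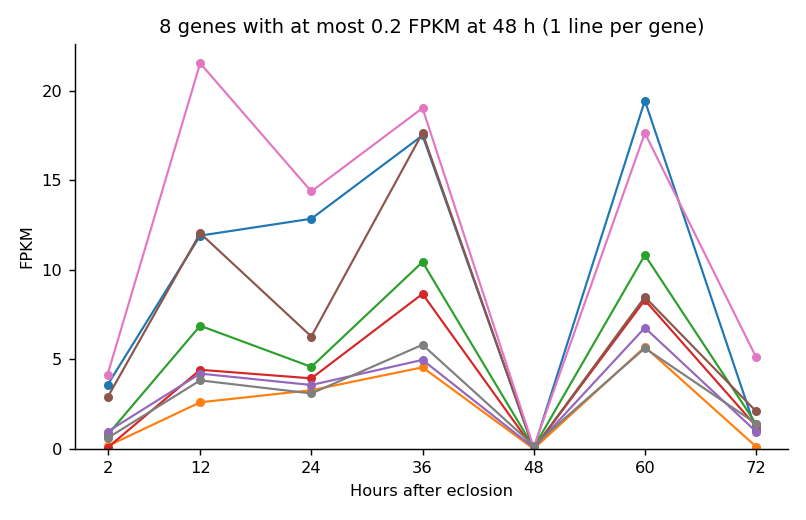
FPKM in each of the 7 libraries of the 8 genes with at most 0.2 FPKM at 48 h, 1 line per gene. All 8 lines come down to the axis at 48 h, return at 60 h to between 5.62 and 19.5 FPKM, and are again low at 72 h.

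The same pattern was looked for with the 60 h and 72 h libraries left out of the choice, by a rule also set after values were seen. At least 1 FPKM at 36 h and at most 10% of that value at 48 h was found in 29 genes. Their medians were 0.495, 3.23, 2.25, 3.72, 0.0481, 3.29 and 0.798 FPKM in the libraries of 2, 12, 24, 36, 48, 60 and 72 h. In 26 of the 29 (89.7%) the 72 h value was at most 50% of the 60 h value, against 1.93% of the 11717 genes with at least 1 FPKM at 36 h, and 1 of the 29 was listed at 0 in both. The 11717 genes had a higher median of 8.25 FPKM at 60 h, so these shares are not matched by level. Most of the 29 lay below the level compared above, since 9 reached 5 FPKM at 72 h or 60 h. Those 9 were the 8 genes nearly absent at 48 h and the gene at 0.816 FPKM there. All 9 had already been counted as at least 2-fold lower at 72 h and are among the 26. Only the remaining genes of the 29 are thus new. In 17 of the 29 the 60 h value was within 2-fold of the 36 h value, against 11379 of the 11717 genes. The rule selects for low 48 h values, and the 2 h and 72 h medians were outside it. The low values of these genes moved with the libraries at 2, 48 and 72 h. What differs between those pools and the others was not tested.

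Some of the lower genes carried neighbouring identifiers. Of the 73 genes at least 2-fold lower at 72 h, 12 (16.4%) had another of the 73 within 2 identifiers, against 1.45% of the 8404 genes compared that had one of the 73 so near. None (0) of the 24 higher genes had another of the 24 within 2 identifiers, against 0.5% of those compared. At 1.5-fold these shares were 19.7% of 340 lower genes, against 7.97%, and 25.8% of 555 higher genes, against 12.3%. Identifiers are not positions, and reads shared between similar genes can give neighbours like values; this was not tested.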

How the data were processed

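Per the labels' protocols, RNA of 200 pooled females per time was extracted with acid phenol, treated with DNase, and sequenced as paired ends of 51 nucleotides, the inserts averaging 200 nucleotides. Per the submitters' processing notes, CASAVA 1.8, Trimmomatic, TopHat, Cufflinks and Cuffdiff were used. The sources used here do not give the genome build, annotation, use of strand, scaling of libraries or treatment of reads shared by similar genes. The deposited values were read as FPKM, which the pipeline's name and the values support but the header does not state. Per the file headers, only the gene and the hour are named. The 20305 identifiers were looked up among 18458 genes in the table of RefSeq assembly VPISU_Cqui_1.0_pri_paternal and 0 matched, so no gene list could be built and no position is given. Where reads are split between similar genes, single values may be affected.

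Changes used log2(FPKM + 1) without a test, with pandas 2.3.3 and numpy 2.4.6 under Python 3.11.15, and plots with matplotlib 3.10.9. Counting of changes and rescaling on the 60 h and 72 h libraries were tested on simulated data. These held equal numbers of genes raised and lowered well past 2-fold. The simulation did not cover the rescaling over 7 libraries or changes near the 2-fold limit. The deposited FPKM add up to 496974 in the 72 h library and 479137 in the 60 h library. The total number of fragments is unknown. Identifiers were chosen as the largest change per direction above 10 FPKM, and above 100 FPKM, in the 72 h or 60 h library, among genes above 0 in every library. The comparison, rules and lists were chosen with earlier results of these data known. Alternatives were a pseudocount of 0.1, rescaling over 7 libraries or on 4878 genes of 10 FPKM or more at both times, no minimum, a minimum of 20 FPKM, leaving out genes listed at 0 and, chosen after seeing the data, leaving out genes with at most 0.2 FPKM at 48 h, and the plain FPKM ratio for genes of 100 FPKM or more.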

Additional observations from a re-analysis of the deposited data

How the results depend on the processing

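The count of genes at least 2-fold changed was 97 and became 152 after rescaling on the 60 h and 72 h libraries alone, 148 with a pseudocount of 0.1, which gives low values more weight, and 48 of 3197 genes with at least 20 FPKM, where fewer genes enter. It stayed within 1.5 times after rescaling over 7 libraries (128), with no minimum (142 of 17480), without genes listed at 0 (92) and without the 8 genes nearly absent at 48 h (89). The higher genes, 24, became 7 and 6 under the 2 rescalings, 46 with a pseudocount of 0.1, 37 with no minimum and 15 with at least 20 FPKM. The lower genes, 73, became 121 and 146 under the rescalings and 33 with at least 20 FPKM. Higher genes made up 24.7% of the changed genes, and 5.47% and 3.95% after the rescalings. The median change of 0.21 became 0.050 and 0.013 under the rescalings and 0.11 with no minimum. The percentage of lower genes that went down in both earlier steps lay between 55.2% and 67.8% under all 7 alternatives, with all genes between 11.3% and 22.8%. The percentage of higher genes that went up in both was 58.3%, and 14.3% of 7 genes after rescaling over 7 libraries. All 12 alternative changes of the 4 genes given by identifier kept their direction and moved by less than 1.5-fold, though CPIJ009026 passed 2-fold with a pseudocount of 0.1 (1.01). No paired analysis was possible because there is 1 pool per time, and none can be left out of a comparison of 2 libraries. By the rough depth estimate, low values rest on fewer fragments at 60 h than at 72 h.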

Other observations

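Of the 8404 genes compared, the 60 h library stood at least 2-fold above both the 72 h and the 48 h library in 16. It stood at least 2-fold below both in 4 genes. Of the 16, 8 were the genes nearly absent at 48 h, whose choice largely set their peak at 60 h. After rescaling 20 of 8078 genes stood above both and 2 below both. Only 1 gene was at least 2-fold lower in both of the last steps, and 0 were at least 2-fold higher in both, with no test in either case.

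Among values near 0, 1059 genes were above 0 at 72 h and listed at 0 at 60 h, the highest at 1.28 FPKM, and 403 were listed at 0 at 72 h and above 0 at 60 h, the highest at 2.36 FPKM. By the rough depth estimate the 72 h library was the deeper of the pair. The part of depth in these counts was not tested.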
